A study of Homo sapiens with 6 samples.

Results

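The 10 genes described here, MAT2A, MAT2B, AHCY, MTR, MTAP, AMD1, SRM, SMS, ODC1 and OAZ1, carry out the central steps of the methionine cycle and of polyamine synthesis. They were chosen by name, each row of the count table being matched by its Ensembl identifier to the current gene symbol. All 10 were found among the 23227 genes of the table. Messenger RNA was sequenced from MV4-11, a human cell line established from an acute myeloid leukaemia. There were 2 groups of 3 libraries, and the question was how expression differs with and without a knockdown of ENO1, the gene of the glycolytic enzyme alpha-enolase. The labels give a wild-type genotype for all 6 libraries, no treatment for the controls and the ENO1 knockdown for the others. The control titles read NC without spelling it out, and it is not given whether they held a control hairpin. The knockdown columns name 1 hairpin, sh2, whose sequence is not given, so no other hairpin stands beside it. Separate cultures are not stated for the libraries, and the p-values here cover no more than library-to-library spread, possibly technical.

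The methionine cycle turns methionine into S-adenosylmethionine, the methyl donor of nearly all cellular methylation, and returns the homocysteine left after methyl transfer to methionine. Polyamine synthesis draws on the same pool: S-adenosylmethionine is decarboxylated and gives its aminopropyl groups to putrescine and spermidine. Growing cells, leukaemia cells among them, need polyamines, and the methylthioadenosine released at each aminopropyl transfer is salvaged back to methionine.

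Expression of ENO1 was first compared across libraries as a check of the labels. ENO1 held 84016, 79566 and 80058 counts in the 3 controls against 2225, 2225 and 2070 counts with the knockdown. This is 3.13% of the control level, and every library matched its label. Library totals ran from 24778469 to 26373960 counts in the controls and from 20044602 to 21670135 in the knockdown. The share of counts from the mitochondrial genome was 6.69% to 6.88% in the controls and 9.27% to 9.69% in the knockdown, and its part in the differences below was not tested. Within their groups, control replicate 2 and knockdown replicate 3 differed most from the others. Values without these 2 libraries are given below for CBS, MRI1 and EIF5A2, which lost their calls. Over the 12 lists described below, 31 genes were then called lower in place of 35. All 8 markers of myeloid leukaemia cells were detected, with a summed level of 1704 to 1724 CPM (counts scaled to a common library total) in the controls and 1872 to 1905 CPM in the knockdown. Of the 8, 3 were called lower and 4 higher. FLT3, the largest part of the sum, rose by 0.33 on the log2 scale. MPO, a granule enzyme of myeloid precursors, fell by 2.61, CEBPA by 0.62 and SPI1 by 0.33, while the leukocyte antigen gene PTPRC rose by 1.1. Summed markers of epithelial cells and fibroblasts stood at 18.5 to 20.1 CPM in the controls and at 45.1 to 48.3 CPM in the knockdown, nearly all from the keratins KRT8 and KRT18. These levels are uncertain, since the genes share 10.1% and 14.3% of their 50-base stretches with other genes. EPCAM, which marks epithelial cells, held 0 to 2 counts in any library. Summed markers of B cells reached at most 6.04 CPM, those of megakaryocytes 1.85 CPM, and those of T cells and erythroid cells 0.139 CPM. The part of these markers in the differences below was not tested.

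The promoters of ODC1 and SRM are shown as the members that hold the MYC-type E-box letters CACGTG. That of MAT2A is shown as the only member with TATAAA shortly before its RefSeq start, where TATA boxes are usually found. Each runs from 250 bases before to 30 bases after an annotated start, 5′ to 3′ on the strand of the gene, from RefSeq on GRCh38.p14, with those letters in capitals. The ODC1 window lies at chr2:10447983-10448262 on the minus strand and belongs to the downstream of 2 annotated RefSeq starts. In the GENCODE annotation used for gene positions, both E-boxes lie in an intron of the gene. The RefSeq start of the window lies between them, so the later one falls within the RefSeq transcript that begins there. The SRM window lies at chr1:11059989-11060268 on the minus strand, with its E-box outside the gene. The MAT2A window lies at chr2:85538918-85539197 on the plus strand.
ODC1: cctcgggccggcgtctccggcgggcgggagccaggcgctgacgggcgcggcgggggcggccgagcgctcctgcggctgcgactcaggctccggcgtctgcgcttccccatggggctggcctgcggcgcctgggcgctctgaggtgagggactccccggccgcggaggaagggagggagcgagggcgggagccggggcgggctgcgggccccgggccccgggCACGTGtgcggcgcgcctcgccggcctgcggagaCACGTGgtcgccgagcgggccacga
SRM: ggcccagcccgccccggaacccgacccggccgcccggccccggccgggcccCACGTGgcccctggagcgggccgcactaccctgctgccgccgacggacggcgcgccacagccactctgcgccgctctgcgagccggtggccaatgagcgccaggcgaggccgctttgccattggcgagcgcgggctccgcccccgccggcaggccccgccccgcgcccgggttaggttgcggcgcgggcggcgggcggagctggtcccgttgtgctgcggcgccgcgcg
MAT2A: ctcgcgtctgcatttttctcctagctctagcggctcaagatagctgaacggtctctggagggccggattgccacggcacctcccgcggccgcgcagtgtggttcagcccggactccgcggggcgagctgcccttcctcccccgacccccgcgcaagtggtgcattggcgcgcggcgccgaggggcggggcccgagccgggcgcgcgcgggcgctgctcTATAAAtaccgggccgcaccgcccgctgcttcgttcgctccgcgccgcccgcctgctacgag

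All 10 members matched the RefSeq promoter table, with 17 start windows of 300 bases (250 before and 50 after the start) out of 35116 in all. On either strand, CACGTG occurred in 2 of the 17 member windows, 1 each of ODC1 and SRM, and in 7.26% of all windows. In ODC1 it occurred 2 times, its first bases 29 bases before the start and 6 bases after it. Only 0.664% of all windows held it at least 2 times. In SRM its first base lay 199 bases before the start. TATAAA occurred in 3 of the 17 member windows and in 11.5% of all windows. Its first base lay 32 bases before the start in MAT2A, 215 bases before it in MTAP, and at base 7 after it in OAZ1. The GC box core GGGCGG occurred in 15 of the 17 member windows, with at least 1 for each of the 10 members, and in 45.0% of all windows. CCAAT occurred in 9 of the 17 member windows, of 8 members, and in 34.6% of all windows. No matches of different motifs overlapped in the members, and a match is a description of the sequence only.

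Of the 10 members, 7 fell in the knockdown, 1 rose and 2 did not pass the test. Levels are CPM on library sizes scaled by TMM, and a log2 fold change is the knockdown minus the control. A call means an adjusted p below 0.05 in edgeR's quasi-likelihood test over all 14635 genes tested. All 10 members passed the filter on low counts, the lowest count of any member in any library being 1314. The share of members called, 80.0%, has to be read against a transcriptome in which 59.9% of all genes were called, 30.5% lower and 29.4% higher. Among the 4482 genes with a mean of at least 50 CPM, which all members exceed, 77.7% were called, and 48.5% were called lower. The median log2 fold change was -0.25 over the members, 0.00 over all genes and -0.09 over genes of at least 50 CPM. The libraries of the 2 groups did not overlap for 9 of the 10 members, 7 lower and 2 higher, against 64.3% of all genes. The share without overlap was not computed for genes of at least 50 CPM, so an excess among the members is not shown. Changes were small: SMS alone passed the test with at least a 1.5-fold difference. In bulk RNA, fewer cells of a type and less RNA per cell cannot be told apart.

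**Figure D1:**
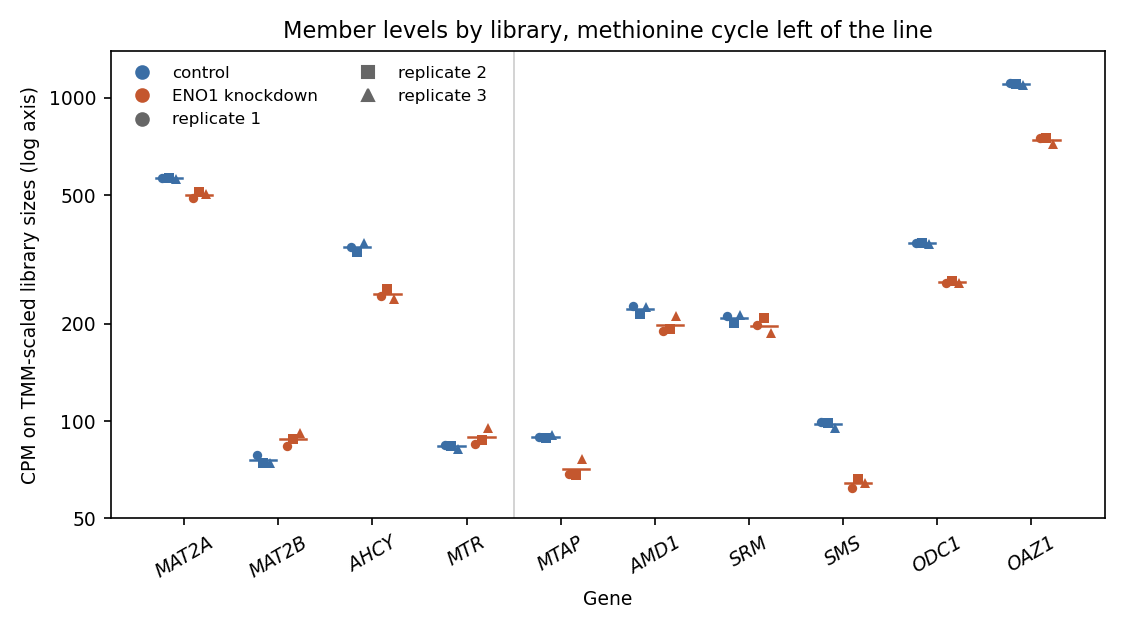
Level of each member in each library, in CPM on TMM-scaled library sizes on a log axis; points are libraries, shaped by replicate, and bars are group means. The knockdown libraries lie below all controls for MAT2A, AHCY, MTAP, AMD1, SMS, ODC1 and OAZ1, above all controls for MAT2B and MTR, and among them for SRM.

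In the methionine cycle, the enzyme that clears S-adenosylhomocysteine fell most, the catalytic subunit of S-adenosylmethionine synthesis fell slightly, its regulatory subunit rose, and methionine synthase did not pass the test. MAT2A (chr2:85539165-85545280, GRCh38, plus strand), the catalytic subunit of the methionine adenosyltransferase found outside the adult liver, stood at 566, 565 and 563 CPM in the controls and at 492, 512 and 504 CPM in the knockdown. The controls were within a few CPM of each other, and all knockdown libraries were lower. The log2 fold change was -0.17 (SE 0.028, n = 3 and 3, adjusted p = 7.48e-06), a level of 89.0% of the control. Of the exon bases of MAT2A, 12.4% overlap GGCX on the other strand. Whether counting used strand is not given. GGCX held 544 to 600 counts beside at least 10248 for MAT2A, which does not show how many MAT2A reads the overlap affected.

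MAT2B (chr5:163503114-163519336, plus strand), the regulatory subunit that binds the catalytic one, moved the other way. It stood at 78.6, 74.5 and 74.4 CPM in the controls and at 83.9, 88.3 and 92.0 CPM in the knockdown. All knockdown libraries exceeded all controls, with control replicate 1 nearest to them. The log2 fold change was 0.22 (SE 0.044, adjusted p = 0.000143), and MAT2B was the only member called higher.

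AHCY (chr20:34280268-34311802, minus strand) encodes the hydrolase that splits S-adenosylhomocysteine, the inhibitory product of methyl transfer, into adenosine and homocysteine. Its level was 346, 333 and 357 CPM in the controls and 244, 257 and 239 CPM in the knockdown. The groups lay far apart compared with their spread. AHCY fell by 0.49 on the log2 scale (SE 0.034, adjusted p = 1.08e-12), to 71.4% of the control.

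MTR (chr1:236795281-236903981, plus strand) encodes the cobalamin-dependent methionine synthase that remethylates homocysteine. It stood at 84.5, 83.9 and 82.3 CPM in the controls and at 84.7, 87.2 and 95.2 CPM in the knockdown. The lowest knockdown library was barely above the highest control, and knockdown replicate 3 stood above the others. The log2 fold change of 0.09 (SE 0.045, adjusted p = 0.0835) did not pass the test. It did so without knockdown replicate 1 (0.12, adjusted p = 0.0316) and with upper-quartile scaling (0.13, adjusted p = 0.0145), the range over all alternatives being 0.00677 to 0.772.

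On the polyamine side, 4 of 5 genes and the salvage enzyme MTAP fell. Both ODC1, at the entry, and SMS, at the last step, were lower, as was OAZ1, the inhibitor of the first step. ODC1 (chr2:10439968-10448504, minus strand) encodes ornithine decarboxylase, which makes putrescine and is a classical MYC target with a very short-lived protein. Its level was 357, 357 and 353 CPM in the controls and 268, 272 and 268 CPM in the knockdown. The spread within each group was a few CPM and the groups did not overlap. ODC1 fell by 0.40 on the log2 scale (SE 0.029, adjusted p = 2.78e-12).

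OAZ1 (chr19:2269509-2273490, plus strand) encodes antizyme 1, made by a polyamine-induced ribosomal frameshift, which binds ornithine decarboxylase and delivers it to the proteasome. It was the most abundant member, with 1113, 1101 and 1097 CPM in the controls and 752, 753 and 722 CPM in the knockdown. Every knockdown library was far below every control. OAZ1 fell by 0.57 on the log2 scale (SE 0.027, adjusted p = 1.78e-16), to 67.2% of the control. It made up 34.8% to 35.3% of the counts of the 10 members in the controls and 29.4% to 30.8% in the knockdown. Together the members held 0.304% to 0.312% of all counts in the controls and 0.249% to 0.255% in the knockdown, so the members' share of the libraries was lower in every knockdown library. A frameshift acts on translation, and these counts do not measure it. Of the exon bases of OAZ1, 6.4% overlap AC005258.1 on the same strand, which has no row in the table. JSRP1 on the other strand overlaps 6.87%.

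AMD1 (chr6:110874770-110895713, plus strand) encodes S-adenosylmethionine decarboxylase, which commits S-adenosylmethionine to polyamines. Its level was 227, 215 and 225 CPM in the controls and 190, 193 and 212 CPM in the knockdown. Knockdown replicate 3 came close to control replicate 2, and the other knockdown libraries lay well below. AMD1 fell by 0.16 (SE 0.038, adjusted p = 0.000509). The value was -0.22 without knockdown replicate 3 and no nearer to 0 than -0.14 when any other library was left out.

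The aminopropyl transferases, which use decarboxylated S-adenosylmethionine in turn, differed from each other. SRM (chr1:11054584-11060024, minus strand), spermidine synthase, stood at 211, 201 and 213 CPM in the controls and at 198, 208 and 187 CPM in the knockdown. The groups overlapped, knockdown replicate 2 lying above control replicate 2. The log2 fold change was -0.08 (SE 0.037, adjusted p = 0.0737) and was not called. It was called without control replicate 2 (-0.10, adjusted p = 0.046) and without knockdown replicate 2 (-0.12, adjusted p = 0.0141), and turned to 0.07 (adjusted p = 0.136) once trends with GC content and length were removed. Over all alternatives its adjusted p ran from 0.012 to 0.598.

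SMS (chrX:21940573-21994835, plus strand), spermine synthase, showed the largest log2 fold change among the 10 members. Its level was 99.4, 98.6 and 95.4 CPM in the controls and 62.1, 66.2 and 64.6 CPM in the knockdown, with a wide gap between the groups. SMS fell by 0.60 on the log2 scale (SE 0.043, adjusted p = 1.53e-12), to 65.8% of the control. Of its 50-base stretches, 21.8% also occur in 3 processed pseudogenes that have no row in the table, so its level is uncertain to the extent that reads were shared or dropped.

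MTAP (chr9:21802543-21937651, plus strand) encodes methylthioadenosine phosphorylase, which takes up the by-product of both transferases. The gene is often lost together with CDKN2A in cancers. It was expressed in all 6 libraries, at 89.4, 88.8 and 90.5 CPM in the controls and at 68.7, 68.2 and 76.5 CPM in the knockdown. The controls lay within a narrow range, and knockdown replicate 3 was the highest of its group. MTAP fell by 0.33 (SE 0.046, adjusted p = 4.65e-07). Exons on the same strand from AL359922.1 and ERVFRD-3, which have no row in the table, overlap 7.83% of its exon bases.

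**Figure D2:**
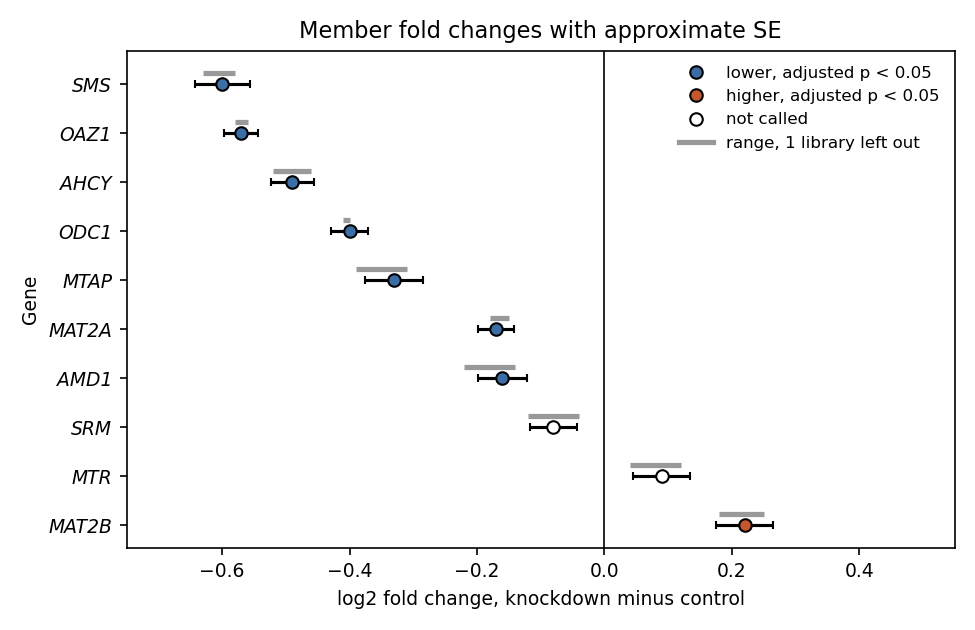
Log2 fold change of each member, knockdown minus control, with approximate standard errors; grey bars span the values when 1 library at a time is left out. SMS is lowest at -0.60 and MAT2B highest at 0.22, and SRM and MTR, the open circles, did not pass the test.

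Levels can be set against each other only per length. Per kilobase of the union of annotated exons, the order in the controls, in CPM per kilobase, was OAZ1 at 321 ± 2.44 (SD, n = 3), MAT2A at 126 ± 0.317, ODC1 at 120 ± 0.894, SRM at 110 ± 3.32 and AHCY at 88.7 ± 3.04. SMS followed at 45.3 ± 0.961, AMD1 at 31.6 ± 0.923, MAT2B at 14.7 ± 0.465, MTR at 7.35 ± 0.1 and MTAP at 6.13 ± 0.0606. No 2 neighbours in this order overlapped between the control libraries. In the knockdown OAZ1 remained first at 216 ± 5.12 CPM per kilobase, followed by MAT2A at 112 ± 2.26. SRM at 104 ± 5.73 then stood above ODC1 at 90.8 ± 0.722, and its highest library, at 110 CPM per kilobase, reached the lowest of MAT2A. AHCY at 63.3 ± 2.5 came next. SMS at 29.8 ± 0.959 and AMD1 at 28.2 ± 1.66 overlapped in their libraries, MAT2B was at 17.1 ± 0.779, MTR at 7.83 ± 0.484 and MTAP at 4.87 ± 0.318. The order depends on the length used. Per kilobase of the principal transcript ODC1 came, at 134 ± 1.0 in the controls, after SRM at 165 ± 4.97 and AHCY at 161 ± 5.53, whose libraries overlapped each other, and MTAP at 14.6 ± 0.145 stood above MTR at 7.94 ± 0.108. AMD1 at 64.6 ± 1.89 then stood above SMS at 53.2 ± 1.13 in the controls, and in the knockdown MAT2B at 41.9 ± 1.91 stood above SMS at 35 ± 1.13.

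Ratios of 2 members within a library do not depend on its scaling. For each of the 5 ratios of partners in the pathway the groups did not overlap, as was so for 64.3% of all single genes. The share for ratios of other gene pairs was not computed. Each exact two-sided permutation test gave p = 0.10, the smallest that 3 against 3 libraries can give, and 0.10 after adjustment over the 5. None was therefore below 0.05. The ratios compare members whose own changes are given above. The ratio of ODC1 to its inhibitor OAZ1, in counts per exon length, was 0.372, 0.376 and 0.372 in the controls against 0.413, 0.418 and 0.430 with the knockdown, a log2 change of 0.17. Every knockdown library had more ODC1 RNA per OAZ1 RNA than any control, although both genes fell. With trends in GC content and length removed, ODC1 stood at -0.38 and OAZ1 at -0.45, a smaller gap than the -0.40 and -0.57 above. The ratio of SRM to SMS was 2.42, 2.33 and 2.54 in the controls against 3.62, 3.58 and 3.29 with the knockdown, a log2 change of 0.53. This was the widest shift of the 5, with the limit on SMS given above.

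The ratio of the catalytic MAT2A to the regulatory MAT2B was 8.27, 8.70 and 8.69 in the controls against 6.73, 6.66 and 6.29 with the knockdown, a log2 change of -0.38. The ratio of AHCY, which removes S-adenosylhomocysteine, to MAT2A, which feeds the cycle, was 0.705 ± 0.0253 (SD, n = 3) in the controls and 0.565 ± 0.0178 in the knockdown, a log2 change of -0.32. The ratio of MTAP to AMD1 was 0.194 ± 0.00463 and 0.172 ± 0.0026, a log2 change of -0.17. The log2 change of a ratio does not depend on the length used for either gene, because lengths cancel between groups.

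**Figure D3:**
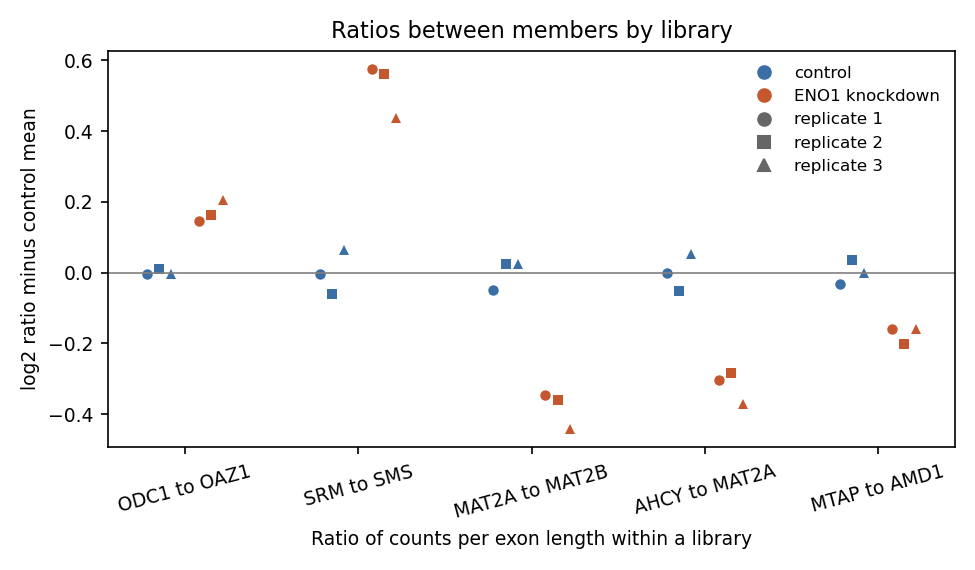
Log2 ratio of the members in each library, in counts per exon length, minus the control mean of that ratio; points are libraries, shaped by replicate. SRM to SMS and ODC1 to OAZ1 are above all controls in every knockdown library, and MAT2A to MAT2B, AHCY to MAT2A and MTAP to AMD1 are below.

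The genes around these members were read from 12 lists of neighbouring steps. Of 64 listed genes, 56 were tested and 43 (76.8%) were called, 35 lower and 8 higher, with a median of -0.23. This is again to be read against the 59.9% of all genes called, 30.5% lower and 29.4% higher. Among genes of at least 50 CPM, a level that not all listed genes reach, 77.7% were called and 48.5% were called lower. The counts of each list below are to be read against the same shares. BHMT, BHMT2, SLC18B1, NNMT and DMRTA1 had no row in the table, and MAT1A, ARG1 and SLC7A8 were removed by the filter. Up to 4 genes of each list, those with the smallest adjusted p, are named, apart from items left out.

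On the methionine side, 8 of 11 genes of remethylation and transsulfuration were tested, of which 5 fell and 2 rose (median -0.24). The weakest of these calls, a lower one (adjusted p = 0.0461), belonged to a gene that overlapped between groups. This call was lost with DESeq2 (adjusted p = 0.0933) and without knockdown replicate 1 (adjusted p = 0.29). Over all alternatives the adjusted p of that gene ran from 0.00426 to 0.29. AHCYL1, an AHCY-like protein that acts on calcium release rather than as a hydrolase, fell by 0.49 (SE 0.046, adjusted p = 5.75e-10). MTRR, the reductase that reactivates methionine synthase, fell by 0.28 (SE 0.037). CTH, the last enzyme of transsulfuration, fell by 0.96 (SE 0.17) from a low level, 109 to 125 counts in the controls and 46 to 59 in the knockdown. CBS, the first enzyme of that route, was singled out after its values were seen: it held 826, 561 and 406 counts in the controls against 96, 70 and 80 with the knockdown, a log2 fold change of -2.63 (SE 0.35, adjusted p = 0.0027). The controls spread widely while the knockdown libraries did not, and the call was lost without control replicate 2 and knockdown replicate 3 (-2.67, adjusted p = 0.0712), the range over all alternatives being 6.93e-16 to 0.0712. The level of CBS is uncertain, since 54.5% of its 50-base stretches are shared with its copy CBSL and other genes, and the sum of both was 833, 570 and 421 counts in the controls against 103, 97 and 116 with the knockdown.

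The 4 enzymes that return the product of MTAP to methionine were all called lower (median -0.28). ENOPH1, a bifunctional phosphatase and enolase of this salvage, fell by 0.39 (SE 0.047, adjusted p = 4.82e-08), and ADI1, the dioxygenase that makes the keto acid of methionine, fell by 0.31 (SE 0.035). The other two were APIP at -0.25 (SE 0.067, adjusted p = 0.002) and MRI1 at -0.15 (SE 0.064, adjusted p = 0.0438). MRI1, of whose exon bases 31.2% overlap AC008686.1 on the other strand, overlapped between groups. Its call was lost without control replicate 2 (adjusted p = 0.219), control replicate 3 (0.0971), knockdown replicate 1 (0.0758) or knockdown replicate 3 (0.189, a log2 fold change of -0.08). Without control replicate 2 and knockdown replicate 3 together, MRI1 stood at -0.03 (adjusted p = 0.656). Over all alternatives its adjusted p ran from 0.00348 to 0.656.

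Of 4 tested methionine transporters, 3 fell (median -0.56). SLC43A1, a facilitated carrier of large neutral amino acids, fell by 1.24 (SE 0.049, adjusted p = 6.18e-18), from 88.7 to 95.7 CPM in the controls to 37.0 to 40.2 CPM in the knockdown. SLC7A5, the exchanger that brings in methionine and leucine, fell by 0.76 (SE 0.032), and SLC3A2, its heavy chain, by 0.37 (SE 0.030). SLC43A2 stood at 0.12 (adjusted p = 0.135). Among proteins that act on MAT2A RNA, NUDT21, a cleavage factor subunit, fell by 0.49 (SE 0.047), METTL16, the methyltransferase that senses S-adenosylmethionine through MAT2A hairpins, fell by 0.16 (SE 0.049), and YTHDC1, a nuclear reader of methylated adenosine, rose by 0.16 (SE 0.038).

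Among the users of S-adenosylmethionine, 8 of 12 arginine methyltransferases and PRMT5 cofactors fell and 2 rose (median -0.27). CARM1 fell by 0.98 (SE 0.040, adjusted p = 9.14e-18), from 127 to 129 CPM in the controls to 63.3 to 66.0 CPM in the knockdown. Of its exon bases 19.9% overlap YIPF2 on the other strand. PRMT5, whose activity is lowered by methylthioadenosine where MTAP is absent, fell by 0.50 (SE 0.037), with 27.1% of its exon bases overlapping an antisense gene. PRMT1, the main enzyme of asymmetric arginine dimethylation, fell by 0.32 (SE 0.028), and PRMT6 fell by 0.49 (SE 0.062). Of 5 tested small-molecule methyltransferases, 3 fell and 1 rose (median -0.18). HNMT, which inactivates histamine, fell by 0.72 (SE 0.053) and GAMT, which makes creatine, by 0.21 (SE 0.057), while TPMT, which methylates thiopurine drugs, rose by 0.31 (SE 0.053).

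On the polyamine side, the antizyme inhibitors that free ornithine decarboxylase from antizyme were both lower. AZIN1 fell by 0.41 (SE 0.030, adjusted p = 2.5e-12), from 503 to 527 CPM to 381 to 399 CPM, and AZIN2 fell by 0.70 (SE 0.13) at 4.08 to 7.55 CPM. OAZ2 was at -0.06 (adjusted p = 0.41) and OAZ3 at -0.20 (adjusted p = 0.397). The median of these 4 was -0.31. Of 2 tested genes of ornithine supply, OAT, the ornithine aminotransferase, fell by 0.63 (SE 0.081), and ARG2 was near the filter, at 0.22 (SE 0.46, adjusted p = 0.697).

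Of 4 genes of polyamine breakdown, 2 fell (median -0.40). SAT1, the acetyltransferase induced by polyamines, fell by 0.47 (SE 0.056), from 46.1 to 52.1 CPM in the controls to 34.9 to 36.4 CPM in the knockdown, and SMOX, spermine oxidase, fell by 0.34 (SE 0.076). PAOX held 10 to 27 counts and stood at -0.77 (SE 0.36, adjusted p = 0.0655), and SAT2 at 0.00 (adjusted p = 0.991). Of 4 tested transport genes, ATP13A3, a polyamine importer, fell by 0.19 (SE 0.032), and SLC12A8 rose by 0.97 (SE 0.25, adjusted p = 0.00153) with 22 to 58 counts. ATP13A2 was at -0.04 (adjusted p = 0.486) and ATP13A4 at 0.31 (adjusted p = 0.562).

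Spermidine is also the substrate for hypusine, a modified lysine of the translation factor eIF5A. Of the 4 genes of this list 3 fell (median -0.34). EIF5A, the factor itself, fell by 0.44 (SE 0.029, adjusted p = 3.61e-13), but shares 15.3% of its 50-base stretches with EIF5AL1 and other copies, so its level is uncertain. DOHH, the hydroxylase of the last step, fell by 0.24 (SE 0.069). EIF5A2 at -0.50 (SE 0.19, adjusted p = 0.0286) overlapped between groups and lost its call without control replicate 1 (adjusted p = 0.0793), control replicate 2 (adjusted p = 0.173) or knockdown replicate 2 (adjusted p = 0.166). Its call was also lost without control replicate 2 and knockdown replicate 3 together (-0.43, adjusted p = 0.11). Over all alternatives the adjusted p of EIF5A2 ran from 0.0076 to 0.173. DHPS, the synthase, was at -0.14 (adjusted p = 0.235), with 28.8% of its 50-base stretches shared with other genes, so its level is uncertain.

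Beside MTAP on chromosome 9, CDKN2A, which encodes p16 and p14ARF, was expressed in all 6 libraries, and fell by 0.23 (SE 0.057, adjusted p = 0.00138). CDKN2B, which encodes p15, rose by 1.65 (SE 0.19, adjusted p = 3.02e-08), from 27 to 52 counts in the controls to 114 to 116 in the knockdown. CDKN2A and CDKN2B thus changed in opposite directions, and MTAP was lower, like CDKN2A.

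**Figure D4:**
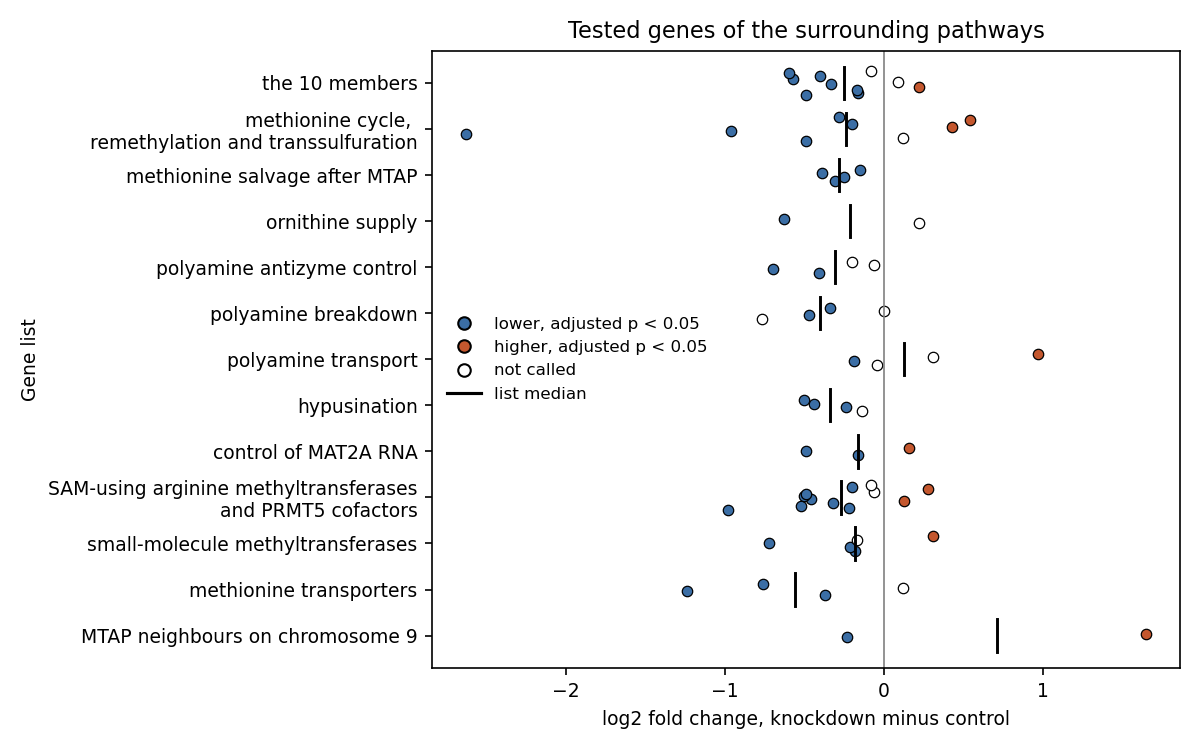
Log2 fold change of each tested gene, knockdown minus control, for the members and the 12 lists around them; filled circles passed the test, and black bars are list medians. All list medians lie below 0 except those of polyamine transport (0.13) and the MTAP neighbours (0.71), and CBS is the point at -2.63.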

How the data were processed

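RNA from 3 control and 3 ENO1 knockdown libraries of MV4-11 was sequenced from total RNA with an Illumina TruSeq kit, per the labels' protocols. The submitters' processing notes name HISAT2 2.0.5 and hg38; counter, annotation and strand were not given in the sources used here. Raw counts per Ensembl gene were deposited by the authors in 1 table, per the file headers, and were used directly. Samples were grouped by title. The members and lists were chosen with earlier results of these data known.

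The test was edgeR 4.0.16 under R 4.3.3 on these counts (TMM, filterByExpr, robust quasi-likelihood, two-sided, no covariate, Benjamini-Hochberg over the 14635 genes left of 23227, which held 99.91% of counts). The common biological coefficient of variation was 0.0392. Standard errors are approximate, from the log2 fold change over the root of the F statistic. Of each list, up to 4 genes with the smallest adjusted p are named, besides ENO1 and the members; some items are not reported here. Positions, lengths and shared 50-base stretches came from GENCODE 29 on GRCh38; genes sharing over 10% are called uncertain. Libraries of a group differed by more than sampling noise (chi-square over its degrees of freedom 2.10 to 4.20; between groups 71.0 to 76.4), and none were identical. The fit was run on simulated counts in which few genes changed and all shared the common dispersion. These data differ in both, so that run does not show how the fit behaves on them. Alternatives were scaling by RLE, by the upper quartile or by plain library size, no filter, at least 5 CPM in 3 libraries, DESeq2 1.42.0, limma-voom (limma 3.58.1), a block for the replicate number, leaving out each library, adjusted p below 0.01, and an added 1.5-fold limit. Removing trends with GC content and length (mgcv 1.9.3; 96.0% of genes), leaving out 2 libraries together and principal transcript lengths were added after the data were seen.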

Additional observations from a re-analysis of the deposited data

How the results depend on the processing

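MAT2A, MAT2B, AHCY, MTAP, AMD1, SMS, ODC1 and OAZ1 kept their direction and call in each of the 16 alternative fits run. These included the fits that left out 1 library. The exceptions among the members were SRM and MTR. The 5 ratios kept their direction in the 8 alternatives run for them, but none of these could reverse it. Lengths cancel between groups, and groups that do not overlap keep their order when 1 library is left out. Removal of the trends in GC content and length was not run for the ratios. MTR was called higher with upper-quartile scaling (0.13), plain library size (0.14), a filter at 5 CPM (0.13) and without knockdown replicate 1; with 1 library left out it ran from 0.04 to 0.12. Members called higher then numbered 2 in place of 1, also the range when 1 library was left out (1 to 2). SRM was called with no filter (-0.10) and ran from -0.12 to -0.04 with 1 library left out, where 7 to 8 members were called lower; it changed sign to 0.07 with the trends in GC content and length removed, and the cause was not tested. Requiring 1.5-fold as well left 1 member called lower and 0 higher, 8 and 2 genes of the 12 lists, and 1283 lower and 1805 higher of all genes (4458 and 4309 without it), which a stricter limit does by construction. Plain library size and upper-quartile scaling moved the median of all genes from 0.004 to 0.058 and 0.043. Libraries with the same replicate number did not deviate together (correlations of 0.00289, 0.00917 and -0.0225); with the replicate block, 4325 genes were called lower and 4165 higher, and no member's call changed (MTR adjusted p = 0.121, SRM adjusted p = 0.12). Each member held at least 1314 counts in every library, and 3 libraries a group limit the exact permutation test of a ratio to p = 0.10.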
